A study of Triticum aestivum with 18 samples.

Results

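The table of wheat gene expression held 134610 genes, and 8 of them were catalase genes, chosen because their gene description contained catalase and not peroxidase. They are called here by chromosome. The gene model of TraesCS6A02G041700 spans 22021274 to 22023743 on the plus strand of chromosome 6A, and that of TraesCS6D02G048300 spans 23075148 to 23077733 on the minus strand of chromosome 6D. TraesCS4B02G325800 lies on chromosome 4B (616987050 to 616991167, minus strand), TraesCS4D02G322700 on chromosome 4D (484657637 to 484661134, minus strand) and TraesCS5A02G498000 on chromosome 5A (665466057 to 665470666, minus strand). TraesCS7A02G549800 lies on chromosome 7A (724082577 to 724090076, plus strand), TraesCS7B02G473400 on chromosome 7B (730149989 to 730153654, plus strand) and TraesCSU02G105300 on a sequence not placed on any chromosome (92716574 to 92720683, plus strand). All 8 are annotated as protein coding on the Chinese Spring assembly, with lengths of 1786 to 2143 bp in the table, and all 8 carry a catalase domain.

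Seedlings of wheat cultivar Jimai 22, described by the submitters as salt tolerant, were grown in nutrient solution, and roots and, from the shoot, the third leaf were taken 4 days after treatment. Root groups were TMG (5 mM 3-MA added 5 h ahead of 150 mM NaCl), TG (150 mM NaCl alone) and CG (neither). Leaf groups were TMY, TY and CY, treated in the same order. Each group had 3 libraries, each from 10 mixed plants. 3-MA (3-methyladenine) is used as an inhibitor of autophagy, but it acts on phosphatidylinositol 3-kinases that have other roles as well. The design has no group with 3-MA but no salt, so each 3-MA change below was measured under NaCl.

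Catalase is a haem enzyme that splits hydrogen peroxide into water and oxygen, mostly inside peroxisomes. In leaves its best known substrate source is glycolate oxidase, which releases hydrogen peroxide during photorespiration. Fatty acid beta-oxidation, through acyl-CoA oxidase, is another source. Bread wheat carries the subgenomes A, B and D, so that a gene usually has near copies, called homoeologues, on chromosomes of the same number. Reads of near copies can be split between them by the counting, and how such reads were handled is not given in the sources used here, so a difference between the 6A and 6D genes, or between the 4B and 4D genes, is less certain than the change of the pair.

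Library totals were 27156078 to 33150906 counts, with TMM scaling factors of 0.607 to 1.27, and the factors of the CY libraries (0.607 to 0.746) were the lowest. Levels are given as CPM, counts scaled to a common library size with these factors. Genes were tested with edgeR's quasi-likelihood test, which is behind every adjusted p below unless another tool is named, and a gene is said to be called where its p, adjusted by Benjamini and Hochberg's method over all genes tested, was at most 0.05. The labelled tissues were checked with 123 leaf genes (chlorophyll a-b binding proteins and the small subunit of Rubisco). Their summed level was 20.3 to 556 CPM in the root libraries and 16270 to 202839 CPM in the leaf libraries. The check for root used 153 genes whose description held Casparian strip membrane or CASP, which takes in CASP-like proteins. It gave a narrower gap, 574 to 762 CPM in root libraries and 362 to 495 CPM in leaf libraries. Of 79 tested between CG and CY, 44 were called higher in CG and 19 lower, against 36.1% and 29.3% of all genes.

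**Figure D1:**
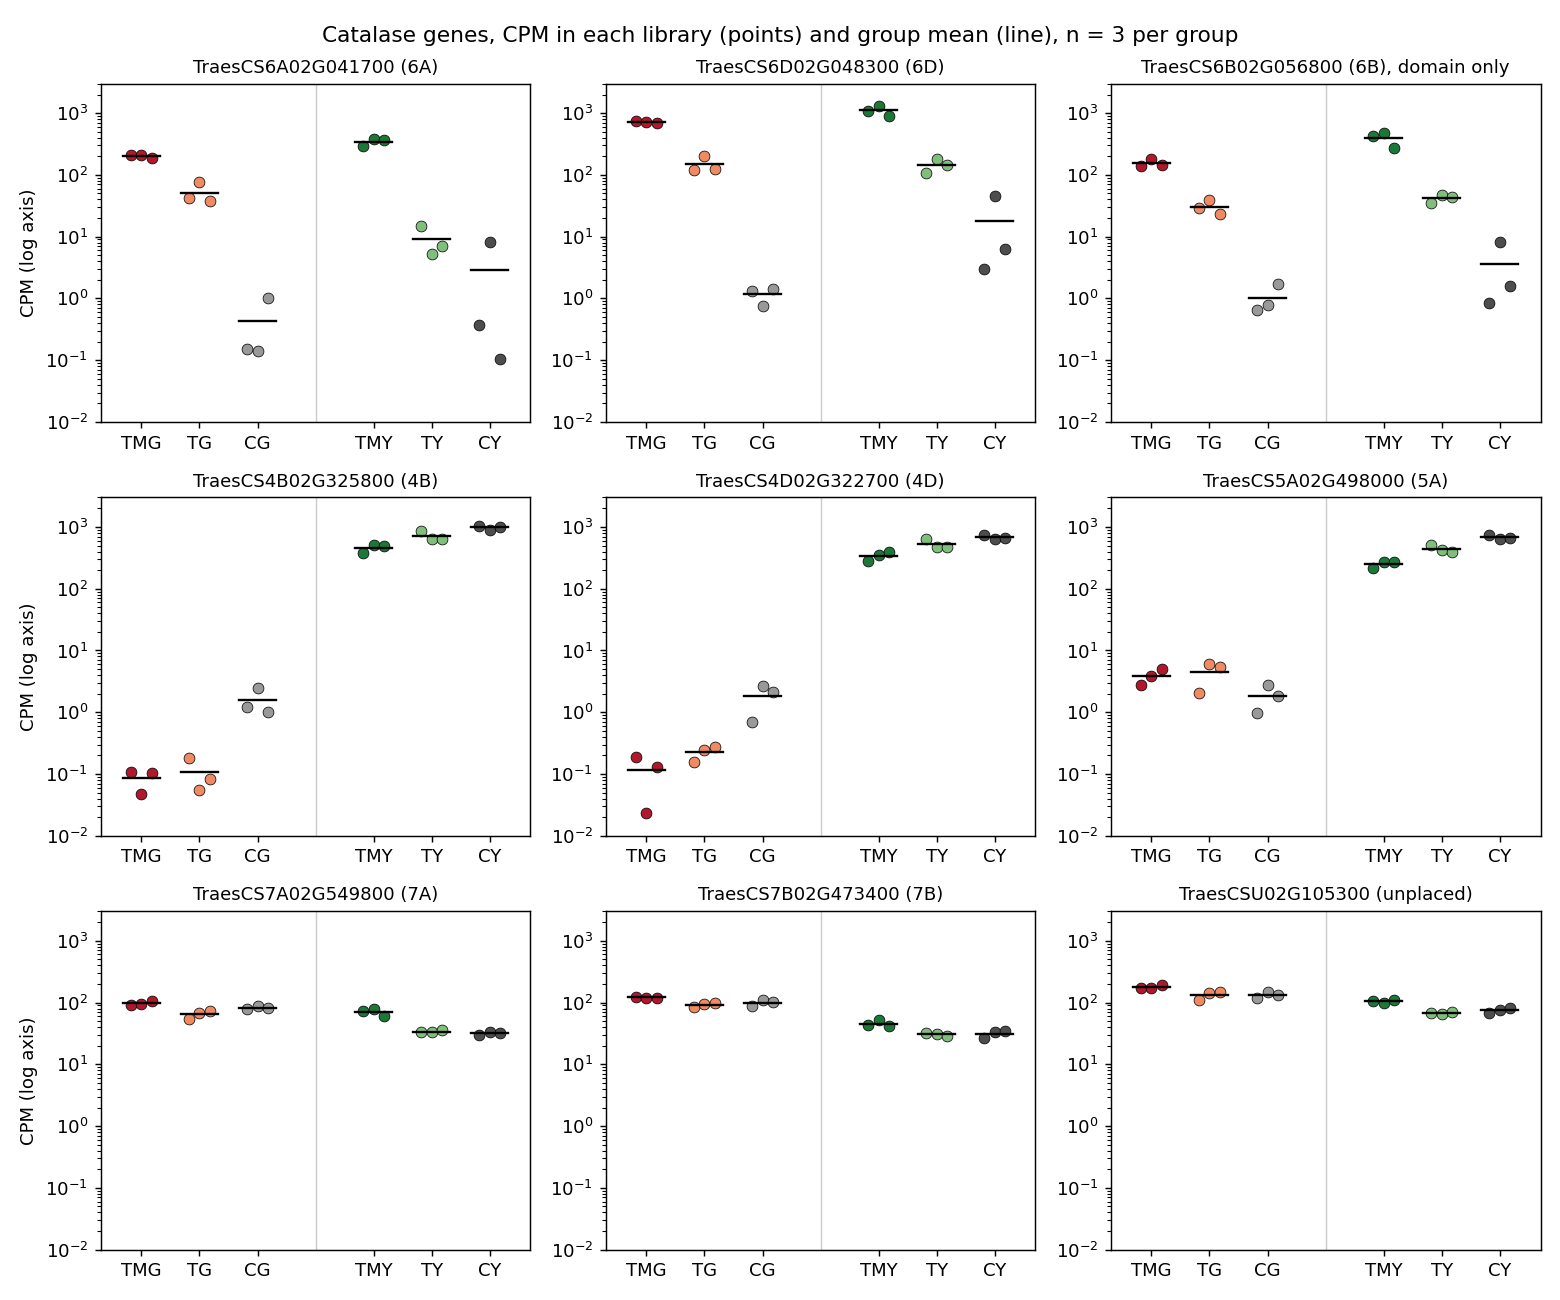
CPM on a log axis in each library (points) with the group mean (line) for the 8 catalase genes, and for TraesCS6B02G056800, which carries the domain but no description and is no member; root groups are on the left of each panel and leaf groups on the right, 3 libraries per group. The 6A and 6D genes had at most 1.42 CPM in any CG library and at least 189.2 CPM in any TMG or TMY library, the 4B, 4D and 5A genes separated leaves from roots, and the 7A, 7B and unplaced genes stayed between 26.6 and 189.5 CPM in all 18 libraries.

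The 6A and 6D genes were close to silent in control roots and were abundant in salt-treated roots, more so with 3-MA. The 6D gene had 748.7, 710.1 and 703.6 CPM in the TMG libraries, 118.5, 199.2 and 125.6 CPM in the TG libraries, and 1.34, 0.750 and 1.42 CPM in the CG libraries. The 3 root groups did not overlap. TG was higher than CG by 7.0 on the log2 scale (SE 0.34, adjusted p = 3.18e-05), and TMG was higher than TG by a further 2.28 (SE 0.20, adjusted p = 0.000367). TMG was above CG by 9.29 on the log2 scale (SE 0.22, adjusted p = 1.64e-09).

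The 6A gene had the same order at lower levels. It had 212.5, 209.6 and 189.2 CPM in TMG, 42.7, 75.5 and 37.1 CPM in TG, and 0.152, 0.143 and 1.01 CPM in CG. All 3 groups were again apart, and CG rested on 36 counts over its 3 libraries. The change of TG against CG was 6.96 (SE 0.62, adjusted p = 0.000188) and that of TMG against TG was 1.98 (SE 0.25, adjusted p = 0.00165), both on the log2 scale. CG library 3 held 27 of these 36 counts, and without it the change of TG against CG was 8.44, still called. With all 6 groups in a single fit the call between TMG and TG was lost (adjusted p = 0.101).

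In leaves the same pair of genes rose with 3-MA, and the 6D gene also with NaCl alone. The 6D gene had 1085, 1319 and 909.7 CPM in TMY, 106.0, 178.9 and 143.1 CPM in TY, and 3.00, 44.8 and 6.21 CPM in CY. The groups did not overlap, but the second CY library stood well above the other CY libraries. TY was higher than CY by 3.03 on the log2 scale (SE 0.86, adjusted p = 0.0354), and TMY was higher than TY by 3.00 (SE 0.26, adjusted p = 0.000885).

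The call of the 6D gene between TY and CY depended on single libraries. Without CY library 2 the change was 5.02 on the log2 scale and still called. Without any one of TY libraries 1, 2 and 3 or CY libraries 1 and 3 it was not called, with adjusted p up to 0.0873. Between TMY and TY the call held with each library left out in turn, at 2.82 to 3.20.

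The 6A gene had 290.8, 380.5 and 365.6 CPM in TMY, 15.0, 5.28 and 7.13 CPM in TY, and 0.368, 8.31 and 0.104 CPM in CY. TMY lay far above the other leaf groups, whereas TY and CY overlapped through CY library 2. TMY exceeded TY by 5.30 on the log2 scale (SE 0.42, adjusted p = 0.000695). The 6A gene was not called between TY and CY, at 1.67 (SE 1.05, adjusted p = 0.283), with a 95% interval of -0.40 to 3.73. Without CY library 2 that change was 5.31 and was called (adjusted p = 0.00353). CY library 2 had a total of 28385494 counts, a TMM factor of 0.746 and the lowest summed leaf marker level of the CY libraries (90192 CPM, against 135045 and 202839 CPM). The part of these in its catalase values was not tested.

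The order of the 6A levels was TMY (346 ± 48.0 CPM, SD, n = 3), TMG (204 ± 12.7), TG (51.8 ± 20.7), TY (9.13 ± 5.15), CY (2.93 ± 4.66) and CG (0.435 ± 0.497). Its last 3 groups overlapped with their neighbours. That of the 6D levels was TMY (1105 ± 205 CPM), TMG (720.8 ± 24.4), TG (147.8 ± 44.7), TY (142.7 ± 36.4), CY (18 ± 23.3) and CG (1.17 ± 0.366), and only the neighbours TG and TY overlapped. For the 6D gene, then, salt-treated roots and salt-treated leaves were at like levels (0.04 on the log2 scale, SE 0.26, 95% interval -0.47 to 0.55, adjusted p = 0.906).

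Chromosome 6B also carries a gene that the description rule did not take. TraesCS6B02G056800 (37250792 to 37253002, minus strand) has a catalase domain and an empty description, and it was added after its values were seen. It had 140.2, 179.5 and 146.5 CPM in TMG, 29.5, 39.5 and 23.1 CPM in TG, and 0.640, 0.786 and 1.68 CPM in CG. In leaves it had 422, 474.6 and 271.3 CPM in TMY, 35.5, 46.7 and 43.1 CPM in TY, and 0.841, 8.21 and 1.61 CPM in CY. Its groups stood in the order of the 6D gene except that TY lay above TG, and CY library 2 was again the highest of its group. It was called higher in TG than CG (4.93), in TMG than TG (2.34), in TY than CY (3.59, adjusted p = 0.00773) and in TMY than TY (3.27), all on the log2 scale. A second gene with the domain alone, TraesCS7A02G549900, had 44, 0 and 35 counts in the TMG, TG and CG libraries together (those of TMG all in library 3) and 4, 3 and 0 counts in those of TMY, TY and CY, and was not tested.

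The 4B, 4D and 5A genes made up most of the catalase FPKM of CY and TY leaves, though not of TMY leaves. The 4B gene had 383.0, 500.9 and 496.6 CPM in TMY, 873.5, 627.8 and 648.2 CPM in TY, and 1039, 902.2 and 1003 CPM in CY. The 3 leaf groups did not overlap. TMY was lower than CY by 1.02 on the log2 scale (log2 change -1.02, SE 0.22, adjusted p = 0.00866). The steps between were not called with edgeR, at -0.58 for TMY against TY (adjusted p = 0.0870) and -0.39 for TY against CY (adjusted p = 0.177).

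The 4D gene followed it. It had 283.0, 354.5 and 392.4 CPM in TMY, 647.7, 477.8 and 469.6 CPM in TY, and 740.4, 634.6 and 660.9 CPM in CY. TMY lay apart from both other groups, and TY library 1 reached into the range of CY. The log2 change was -0.91 for TMY against CY (SE 0.22, adjusted p = 0.0138), -0.57 for TMY against TY (adjusted p = 0.0937) and -0.29 for TY against CY (adjusted p = 0.303). With DESeq2 both genes were called between TMY and TY (adjusted p = 0.0342 for 4B and 0.0461 for 4D). The calls of both genes between TMY and CY were lost when libraries were scaled by size alone (log2 changes -0.48 for 4B and -0.37 for 4D, adjusted p = 0.0989 and 0.190), and that of the 4D gene was also lost without TMY library 1 or CY library 1 (adjusted p up to 0.0659).

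The 5A gene fell at both steps. It had 220.4, 271.2 and 266.6 CPM in TMY, 509.9, 422.1 and 393.6 CPM in TY, and 741.9, 636.1 and 670.8 CPM in CY. No leaf group overlapped another. The log2 change was -0.75 for TMY against TY (SE 0.18, adjusted p = 0.0243), -0.57 for TY against CY (SE 0.18, adjusted p = 0.04998) and -1.36 for TMY against CY (SE 0.21, adjusted p = 0.00178). The value for TY against CY was at the threshold, and it was not called without any one of TY libraries 1, 2 and 3 or CY libraries 1 and 3 (adjusted p up to 0.185) or when libraries were scaled by size alone (-0.22, adjusted p = 0.347). The same held with no filter on low counts and with all 6 groups in a single fit. The TMY to TY call was lost without TMY library 1 or 3 or any one TY library (adjusted p up to 0.0980), whereas the TMY to CY call held with each library left out. For all 3 genes the order of mean levels in leaves was CY, TY and TMY, above every root group, and the only neighbours in leaves that overlapped were CY and TY for the 4D gene.

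The leaf markers fell in the same comparisons. Their summed level was 20447 ± 6401 CPM in TMY, 40643 ± 3603 in TY and 142692 ± 56711 in CY (SD, n = 3 each), and 16, 12 and 8 of the 123 genes had no count in these groups. Of those tested, 49 of 84 were called lower between TMY and TY, against 9.94% of all genes. Between TY and CY 97 of 105 were called lower, against 13.2%. None was called higher in either, and the median log2 changes were -1.13 and -2.46. The part of this in the levels of the 4B, 4D and 5A genes was not tested.

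In roots these genes were near the floor. The 4B gene had 0.109, 0.0476 and 0.106 CPM in TMG, 0.181, 0.0546 and 0.0834 CPM in TG, and 1.22, 2.43 and 1.01 CPM in CG, or 10, 12 and 135 counts over the 3 libraries of each group. Both treated groups lay below CG and overlapped each other. The log2 change of TG against CG was -3.78 for the 4B gene (SE 0.57, adjusted p = 0.00169) and -2.96 for the 4D gene (SE 0.56, adjusted p = 0.00439). Without TG library 1 that of the 4B gene was -4.39. The 4D gene had 13, 25 and 154 counts in TMG, TG and CG. Between TMG and TG neither gene passed the filter on low counts, so neither was tested there.

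The summed leaf marker level moved the same way in roots, with 20.3, 22.4 and 27.5 CPM in TMG, 97.9, 70.3 and 119.7 CPM in TG, and 328.6, 556.0 and 520.4 CPM in CG. Relative to the matching leaf group, the markers were at 0.114% in TMG, 0.236% in TG and 0.328% in CG. The 4B gene was at 0.0190%, 0.0148% and 0.158% of its leaf level in these groups, and the 4D gene at 0.0336%, 0.0426% and 0.269%. The part of the leaf markers, of which 62, 54 and 25 of 123 genes had no count in TMG, TG and CG, was not tested. In whole roots, fewer cells of a type and less RNA per cell cannot be told apart.

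The 5A gene was not lower in the treated roots. It had 2.78, 3.86 and 5.05 CPM in TMG, 2.04, 6.09 and 5.37 CPM in TG, and 0.975, 2.79 and 1.83 CPM in CG. TMG exceeded CG by 1.10 on the log2 scale (SE 0.34, adjusted p = 0.0171), a call that was lost without TMG library 3 or CG library 1 (adjusted p up to 0.0676). Between TG and CG it was not called at 1.303 (SE 0.47, adjusted p = 0.0604), but it was called without TG library 1 (adjusted p = 0.00292), with DESeq2, when libraries were scaled by size alone, with no filter on low counts and with all 6 groups in a single fit. Its root level was 1.54%, 1.02% and 0.273% of its leaf level in TMG, TG and CG. The leaf level itself differed, with means of 252.7 CPM in TMY, 441.9 in TY and 682.9 in CY. In roots TMG and TG overlapped, and the change between them was not called (log2 change -0.21, adjusted p = 0.748).

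The 7A, 7B and unplaced genes were the root catalases of untreated plants, and they varied least. The 7A gene had 92.4, 93.7 and 106.5 CPM in TMG, 53.2, 66.6 and 72.5 CPM in TG, and 79.2, 87.3 and 80.2 CPM in CG. TG lay below both other root groups, with a log2 change of -0.33 for TG against CG that was not called (SE 0.15, adjusted p = 0.123). TMG exceeded TG by 0.60 (SE 0.14, adjusted p = 0.0187). In leaves it had 73.0, 77.5 and 59.7 CPM in TMY, 32.8, 33.7 and 35.4 CPM in TY, and 29.5, 33.4 and 31.8 CPM in CY. TMY stood apart, by 1.10 over TY (SE 0.15, adjusted p = 0.00331) and by 1.23 over CY (SE 0.17, adjusted p = 0.00120), on the log2 scale, while TY and CY overlapped (0.17, adjusted p = 0.402, and called only when libraries were scaled by size alone).

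The 7B gene had 124.3, 119.3 and 119.6 CPM in TMG, 83.2, 94.7 and 96.9 CPM in TG, and 86.4, 108.6 and 101.1 CPM in CG. TG and CG overlapped, with -0.08 on the log2 scale (adjusted p = 0.699). TMG exceeded TG by 0.40 (SE 0.10, adjusted p = 0.0262). In leaves it had 44.0, 52.0 and 41.3 CPM in TMY, 31.8, 31.0 and 29.2 CPM in TY, and 26.6, 33.1 and 34.8 CPM in CY. Only TMY stood apart among the 3 leaf groups, at 0.63 over TY (SE 0.14, adjusted p = 0.0196).

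The unplaced gene had 172.5, 174.7 and 189.5 CPM in TMG, 111.2, 142.5 and 148.8 CPM in TG, and 117.1, 147.2 and 133.7 CPM in CG. Its TMG libraries lay above those of TG, but the log2 change of 0.41 was not called (SE 0.13, adjusted p = 0.0606), and it was called without TG library 1 or 3 (adjusted p from 0.0397), with DESeq2 and when libraries were scaled by size alone. In leaves it had 107.6, 98.0 and 110.2 CPM in TMY, 66.7, 66.1 and 69.9 CPM in TY, and 66.5, 76.9 and 80.2 CPM in CY. TMY was apart from the other leaf groups, at 0.70 over TY (SE 0.14, adjusted p = 0.0138).

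Over the 6 groups, the mean level was highest in TMG for all 3 genes, and TMG overlapped no other group. The 7A gene then ran CG, TMY, TG, TY and CY, with TMY and TG overlapping. The 7B gene ran CG, TG, TMY, CY and TY, and the unplaced gene TG, CG, TMY, CY and TY, with CG and TG overlapping in both. TY and CY overlapped for all 3.

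Several of these smaller changes depended on single libraries. In roots, the TMG to TG calls of the 7A and 7B genes were lost without TMG library 1, 2 or 3 or TG library 2 (adjusted p up to 0.0815 for 7A and 0.101 for 7B). In leaves, the TMY to TY calls of the 7B and unplaced genes were lost without TMY library 1 or any one of the 3 TY libraries (adjusted p up to 0.0880 and 0.0620). The TMY to TY call of the 7A gene held with each library left out, at 1.06 to 1.21 on the log2 scale.

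**Figure D2:**
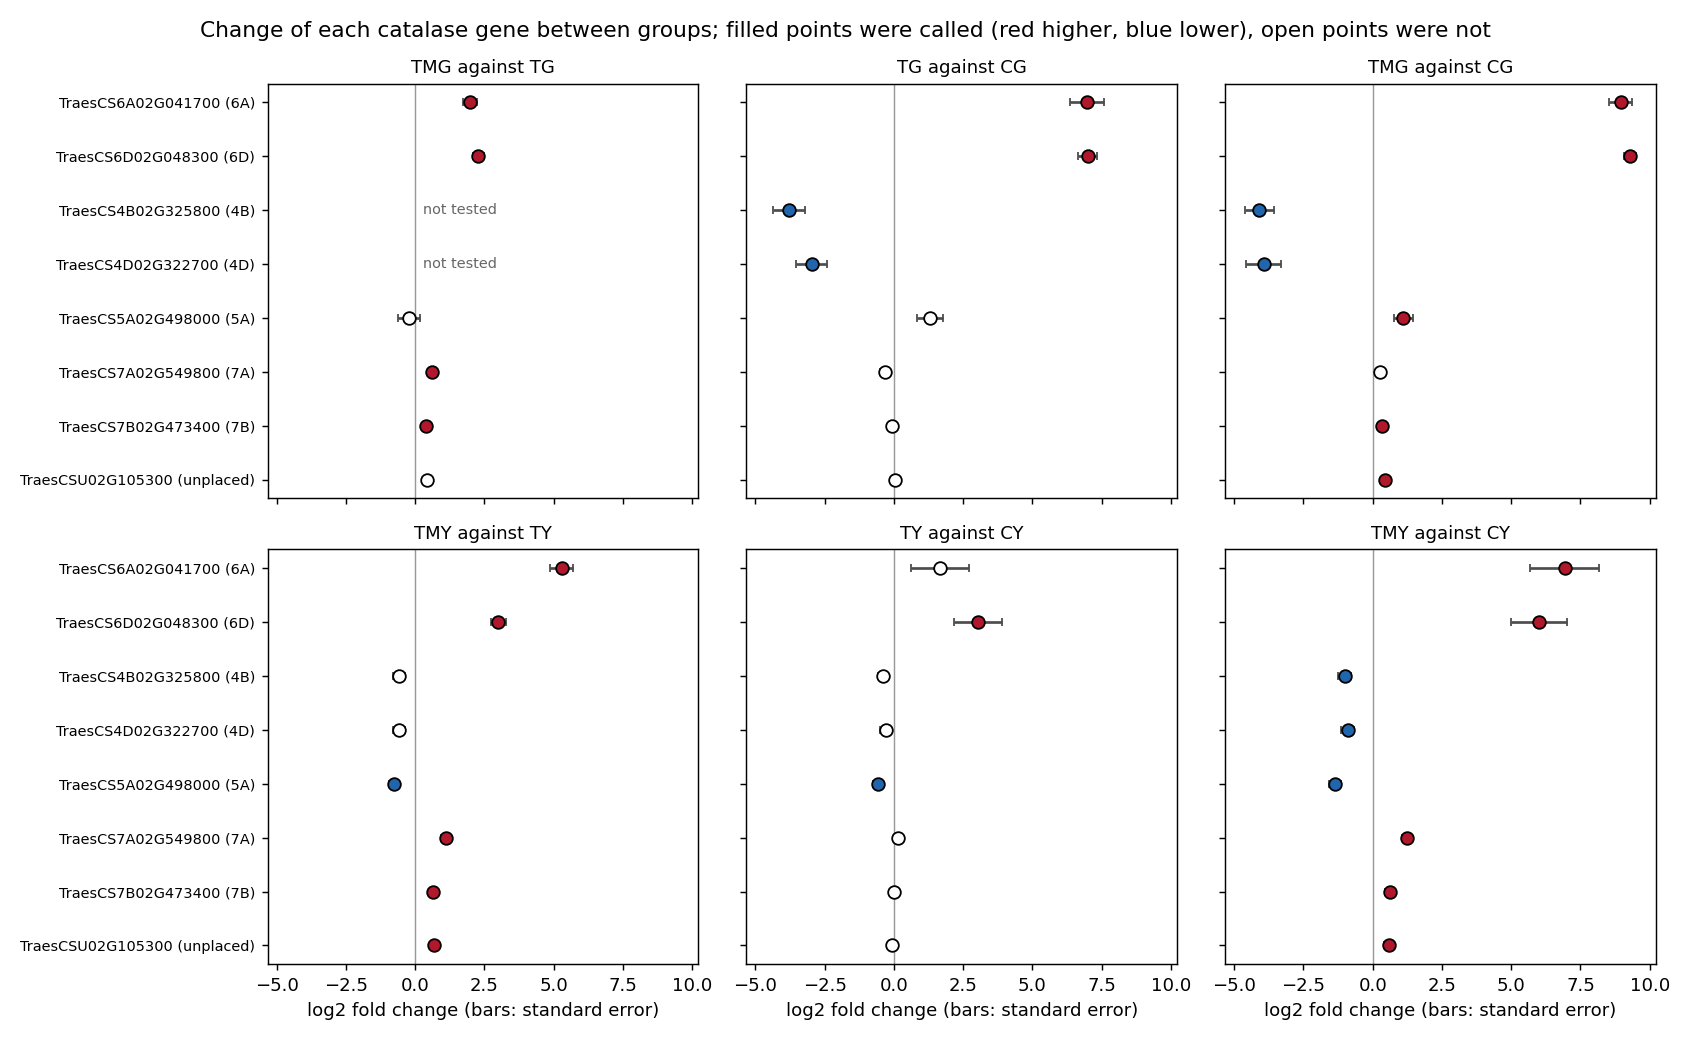
log2 fold change of each catalase gene (horizontal axis, bars standard error) in 6 comparisons, roots in the upper row and leaves in the lower row, 3 libraries per group; filled points were called at an adjusted p of 0.05 or less, red higher and blue lower, and open points were not. The 6A and 6D genes lay farthest to the right in all 6 panels, up to 9.29 for the 6D gene in TMG against CG, and the 4B and 4D genes lay left of 0 wherever they were tested.

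Under NaCl alone, the share of catalase genes called was near that of all genes in both tissues. Between TG and CG all 8 passed the filter on low counts, and 4 were called, against 35.6% of all genes tested. Higher were 2 (6A and 6D), against 18.5% of all genes, and lower were 2 (4B and 4D), against 17.1%. The groups did not overlap for 5 of 8, against 51.3% of all genes. The 4B and 4D genes passed the filter only through their CG counts, with 12 and 25 counts in TG. The 6A gene passed only through its TG counts, with 36 counts in CG. The direction of these calls and the lack of overlap of these genes followed from the way they passed. Between TY and CY 2 of 8 were called, against 23.3%, 1 higher (6D), against 10.1%, and 1 lower (5A), against 13.2%. The groups did not overlap for 3 of 8, against 43.1%. The TY to CY count fell to 0 without TY library 1, 2 or 3 or CY library 1 or 3, and it was 3 without CY library 2.

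With 3-MA added under salt, more of the catalase genes were called, mostly upwards. Between TMG and TG 4 of the 6 that passed the filter were called, against 20.2% of all genes. All 4 were higher (6A, 6D, 7A and 7B), against 8.16% of all genes, and none was lower, against 12%. Between TMY and TY 6 of 8 were called, against 18.4%, with 5 higher (6A, 6D, 7A, 7B and the unplaced gene), against 8.44%, and 1 lower (5A), against 9.94%. The groups did not overlap for 5 of 6 genes between TMG and TG, where 41.4% of all genes did not, and for 8 of 8 between TMY and TY, where 38.5% did not. These comparisons share the TG and TY libraries with those above. The count between TMG and TG was 2 without TMG library 1, 2 or 3 or TG library 2, and that between TMY and TY was 3 without TMY library 1 or TY library 1, 2 or 3. The 6A and 6D genes were called in every one of these fits.

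Set against the controls, both treatments together gave 7 of 8 genes called between TMG and CG, where 56.6% of all genes were. Of these, 5 were higher, against 28.1%, and 2 lower, against 28.5%, and the groups did not overlap for 7 of 8, against 64.7%. The 2 lower genes, 4B and 4D, passed the filter only through their CG counts, with 10 and 13 counts in TMG. The 6A gene passed only through its TMG counts, with 36 counts in CG. The direction of these calls and the lack of overlap of these genes followed from the way they passed. The gene not called was 7A, at 0.27 on the log2 scale (adjusted p = 0.0558), and the gene that overlapped was 5A. The call of the 7B gene (0.32, adjusted p = 0.0360) was lost without TMG library 1, 2 or 3 or CG library 1 or 3 (adjusted p up to 0.105). Between TMY and CY 8 of 8 were called, where 37.2% of all genes were, with 5 higher, against 16.6%, and 3 lower (4B, 4D and 5A), against 20.6%. The groups did not overlap for 8 of 8, against 51.8%. The 6A gene passed the filter only through its TMY counts, with 185 counts in CY, and its higher call and lack of overlap followed from this. The count of genes called was 5 without TMY library 1 or CY library 1.

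Roots and leaves without treatment differed in every catalase gene that was tested. Between CG and CY, 7 genes passed the filter and 7 were called, where 65.4% of all genes were. Higher in roots were 3 (7A, 7B and unplaced), against 36.1%, and lower were 4 (4B, 4D, 5A and 6D), against 29.3%. None of the 7 overlapped between the groups, where 71.9% of all genes did not. The 7B gene had the highest log2 change, at 1.65 (SE 0.18), and the 4B gene the lowest, at -9.30 (SE 0.42). The 6D gene was at -3.95 (SE 0.91, adjusted p = 0.00307), and at -1.99 without CY library 2. The 6A gene did not pass the filter, with 36 counts in CG and 185 in CY.

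Under salt the 6A gene was called higher in roots. Its log2 change between TG and TY was 2.49 (SE 0.42, adjusted p = 0.00103). In that comparison 7 of 8 genes were called, where 63.8% of all genes were, with 4 higher (6A, 7A, 7B and unplaced), against 35.6%, and 3 lower (4B, 4D and 5A), against 28.2%, and the groups did not overlap for 7 of 8, against 71.3%. With 3-MA added under salt, between TMG and TMY, the 6A gene was called lower in roots (log2 change -0.82, SE 0.16, adjusted p = 0.00224), as was the 6D gene (-0.67, SE 0.19, adjusted p = 0.0136). There, 8 of 8 were called, where 60.8% of all genes were, with 3 higher, against 33%, and 5 lower, against 27.8%, and the groups did not overlap for 8 of 8, against 69.5%. In both comparisons the 4B and 4D genes passed the filter only through their leaf counts. They had 12 and 25 counts in TG and 10 and 13 in TMG. Their lower calls and lack of overlap followed from the way they passed. With all 6 groups in a single fit the 6A and 6D calls between TMG and TMY were lost (adjusted p = 0.388 for 6A and 0.390 for 6D), and the 6D call was also lost without TMG library 1, 2 or 3 (adjusted p up to 0.0719) and when libraries were scaled by size alone. The call of the 7A gene (0.42, adjusted p = 0.0363) was lost without any one of the TMG libraries or without TMY library 1 or 3 (adjusted p up to 0.128).

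Whether a change differed between the tissues was tested as an interaction on 12 libraries. For NaCl, with the leaf change (TY over CY) taken from the root change (TG over CG), 5 of 8 genes were called, where 11.1% of all genes were. The difference was positive for 3, against 6.17% of all genes, and negative for 2, against 4.91%. It was 5.27 for the 6A gene (SE 1.45, adjusted p = 0.0347), 3.94 for 6D (SE 1.05, adjusted p = 0.0305), 1.85 for 5A (SE 0.53, adjusted p = 0.0402), -2.68 for 4D (SE 0.55, adjusted p = 0.00908) and -3.39 for 4B (SE 0.54, adjusted p = 0.00211). The 5A gene thus had a positive value in roots and a negative one in leaves.

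In this test the root change of the 4B and 4D genes rested on few counts, 12 and 25 in TG and 135 and 154 in CG. With that limit, the calls of these 2 genes held with each of the 12 libraries left out, with -4.01 for 4B without TG library 1. That of the 6A gene held in 6 of 12 such fits, and its difference was 1.68 without CY library 2 (adjusted p = 0.512) and 6.75 without CG library 3. It lay between these in the other 10 fits, of which those without TY library 1 or CY library 3 moved it most. That of the 6D gene held in 6 of 12, with 2.02 without CY library 2, and that of the 5A gene in 3 of 12. The libraries without which a call was lost were TG 2, CG 1, CG 2, TY 2, TY 3 and CY 2 for 6A, and TG 2, CG 1, CG 2, CG 3, TY 1 and TY 3 for 6D. For 5A they were TG 2, TG 3, CG 1, CG 3, CY 1, CY 3 and each TY library.

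For 3-MA, with the leaf change (TMY over TY) taken from the root change (TMG over TG), 1 of 8 genes was called, where 10.5% of all genes were. The 4B and 4D genes passed the filter here through their leaf counts, and with 10 and 13 counts in TMG and 12 and 25 in TG their root change was hardly measured. No difference was called positive, against 3.4% of all genes, and 1 was called negative, against 7.12%. The called gene was 6A, whose log2 change was smaller in roots by 3.40 (difference -3.40, SE 0.48, adjusted p = 0.00157). The call held whichever of the 12 libraries was omitted, at -3.96 to -3.04, but was lost with all 6 groups in a single fit (adjusted p = 0.0611). The 6D gene had a difference of -0.80 (SE 0.33, adjusted p = 0.147).

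Added up per length, the catalase genes reached higher levels in leaves than in roots, and with 3-MA added than under salt alone. FPKM are the authors' values, in which counts are divided by gene length and scaled between libraries. That scaling was not by total counts alone. The 4B gene had 24308 of 30555526 counts and 409.5 FPKM in TY library 1. In CY library 1 it had 19766 of 27689172 counts and 495.1 FPKM. Summed FPKM was 644.6, 624.3 and 628.4 in TMG, 211.2, 293.1 and 248.3 in TG, and 150.6, 187.2 and 174.6 in CG. The 3 root groups did not overlap, and TMG was above both others in every library. In leaves the sum was 1153, 1420 and 1242 in TMY, 1056, 854.4 and 834.3 in TY, and 1241, 1105 and 1152 in CY. TY lay below both other leaf groups, and TMY and CY overlapped. Whether TY would lie below CY with total counts as the only scaling was not examined. The sums of TMY and CY had a different makeup.

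**Figure D3:**
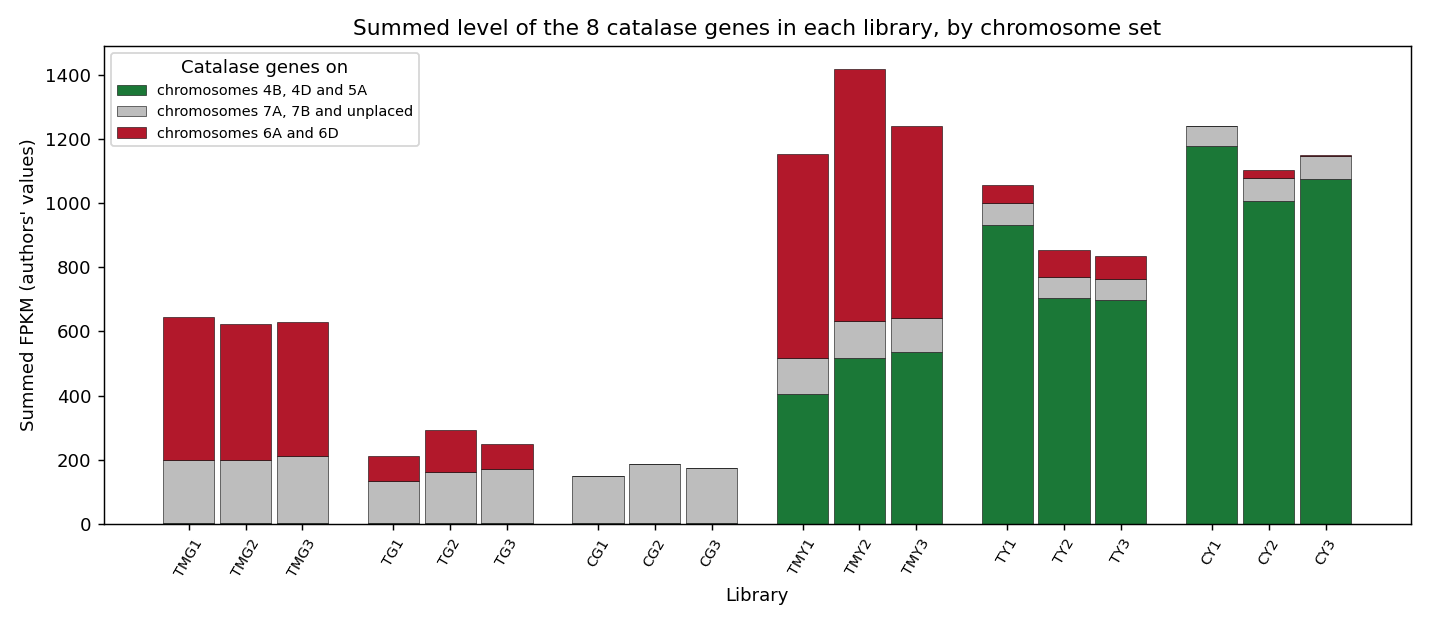
Summed FPKM of the 8 catalase genes in each library, divided into the 4B, 4D and 5A genes, the 7A, 7B and unplaced genes, and the 6A and 6D genes, with the root groups to the left of the leaf groups. The 6A and 6D genes made up 66.1% to 69.2% of the sum in TMG and 48.3% to 55.5% in TMY, and at most 2.25% in CG and CY.

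In roots the 6A and 6D genes took a mean of 67.9% of the summed FPKM in TMG, 37.9% in TG and 0.469% in CG. The 7A, 7B and unplaced genes took 31.8%, 61.2% and 98.1% in the same groups, with levels of their own that spanned less (201 ± 8.06 FPKM in TMG, 152 ± 18.5 in TG and 167 ± 17.5 in CG, SD, n = 3). In leaves the 6A and 6D share was 53.0% in TMY, 7.86% in TY and 0.875% in CY. The 4B, 4D and 5A genes took 38.2%, 84.8% and 93.1% there, with 486 ± 70.5, 778 ± 135 and 1087 ± 85.5 FPKM. These shares were described and not tested.

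Within the 4B, 4D and 5A genes, the 4B gene held 44.4%, 43.2% and 42.7% of the summed FPKM in TMY, TY and CY. The 5A gene held 22.7% to 24.4% in TMY, 24.7% to 27.2% in TY and 28.3% to 29.0% in CY, ranges that did not overlap. In roots the 5A gene held 94.6%, 91.5% and 34.9% of it in TMG, TG and CG. The 6D gene held the larger part of the 6A and 6D sum in every group, from 73.5% in TG to 93.0% in TY, with 75.0% in TMY, 90.2% in CY, 77.1% in TMG and 76.6% in CG.

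Over the 18 libraries, log2(CPM + 1) of the catalase genes fell into the same sets. Pearson's r was 0.980 to 0.999 among the 4B, 4D and 5A genes, 0.943 between 6A and 6D, and 0.890 to 0.953 among the 7A, 7B and unplaced genes. The 4B and 7B genes ran opposite (r = -0.962), and r was 0.0379 between the 4B and 6D genes. The libraries share 6 groups and 2 tissues, so they are not independent points.

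Likeness was taken over 5270 described genes whose mean CPM over all libraries was at least 3 on the log2 scale. The 6D gene was used for roots because its mean CPM over the 9 root libraries was the highest of the 8, which rests on TMG, since in CG the unplaced gene was far higher. Those most like it were TraesCS3D02G524700 (r = 0.954) and TraesCS3A02G517100 (r = 0.953), which encode the pathogenesis-related proteins wheatwin-2 and wheatwin-1, and TraesCS5B02G059300, a serine/threonine protein kinase (r = 0.948). The wheatwin-1 gene had 121 ± 21.5 CPM in TMG, 30.5 ± 10.2 in TG and 0.0221 ± 0.0193 in CG. In leaves it had 207 ± 188 CPM in TMY, 13.5 ± 7.80 in TY and 5.25 ± 7.63 in CY, with a spread in TMY close to its mean.

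The 4B gene was used for leaves because its mean CPM over the 9 leaf libraries was the highest of the 8, although in TMY the 6D gene was higher. Those most like it were a pair of genes that the authors added to the annotation, with an aminotransferase class-V domain (r = 0.999 and 0.998), and TraesCS4A02G472500 (r = 0.999), a chloroplast ferredoxin-NADP reductase that passes electrons to NADP at the end of the photosynthetic chain. The reductase gene had 299.9 ± 43.4 CPM in TMY, 483 ± 43.1 in TY and 804 ± 142 in CY. It had under 1 CPM in each root group on average. The added gene with the higher r had 713 ± 130 CPM in TMY, 1127 ± 61.1 in TY and 1149 ± 122 in CY.

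Genes that make or remove hydrogen peroxide, and genes of photorespiration and peroxisome assembly, were taken from lists matched by description. Of the 134610 genes 28426 had a description, so each list can miss genes, and the shares of all genes include genes without one. Between TMG and TG 8.16% of all genes were called higher and 12% lower, and between TG and CG 18.5% and 17.1%. Between TMY and TY these shares were 8.44% and 9.94%, and between TY and CY 10.1% and 13.2%. No gene matched glycolate oxidase. The summed level of the 24 other photorespiration genes was higher in leaves, at 4424 ± 811 CPM in TMY, 7495 ± 126 in TY and 10078 ± 470 in CY. In roots it was 612 ± 21.8 CPM in TMG, 786 ± 19.9 in TG and 447 ± 33.2 in CG. Single genes went both ways. Between CG and CY 4 of 24 were called higher in roots and 19 lower, against 36.1% and 29.3% of all genes. Between TG and TY these were 7 and 15, against 35.6% and 28.2%, and between TMG and TMY 3 and 15, against 33% and 27.8%. Between TMY and TY 2 were called higher and 8 lower of 24 (median log2 change -0.37, against 0.0047 over all genes), and between TY and CY none was called higher and 6 lower (median -0.21, against 0.02). Between TMG and TG 2 were called higher and 13 lower of 20 tested (median -0.52, against -0.0092), and between TG and CG 10 higher and 2 lower of 24 (median 0.37, against 0.03). The most abundant, the serine hydroxymethyltransferase TraesCS4A02G246100, which makes serine from glycine, had 24.7 ± 1.36 CPM in TMG and 32.8 ± 1.18 in TG (log2 change -0.42, adjusted p = 0.0190), and 914 ± 404 CPM in TMY and 1834 ± 189 in TY (-0.96, adjusted p = 0.0619).

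Of the 12 acyl-CoA oxidase genes 2 were called higher between TMG and TG, where 8.16% of all genes were, and none lower. Between TG and CG none was called higher and 1 lower, where 17.1% of all genes were lower. Between TMY and TY 5 were called higher and 1 lower (median 0.28, against 0.0047 over all genes), and between TY and CY 2 higher and none lower. The most abundant, TraesCS7D02G004400, had 84.5 ± 21.3 CPM in TMY, 100.4 ± 27.3 in TY and 66.7 ± 5.21 in CY, and was called higher between TY and CY (0.65, adjusted p = 0.0498).

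Of the 2 genes matched for the ascorbate-glutathione cycle, which removes hydrogen peroxide with ascorbate and glutathione, 2 were called higher between TMG and TG and 2 between TMY and TY. The shares of all genes called higher were 8.16% and 8.44%. Between TG and CG 1 was called lower and none higher, and between TY and CY none was called. Their summed level in roots was 92.0 to 100.9 CPM in TMG, 46.2 to 69.5 CPM in TG and 82.1 to 115 CPM in CG, with TG apart from both other groups. The glutathione reductase TraesCS6A02G383800 had 69.9 ± 3.49 CPM in TMG, 44.3 ± 8.37 in TG and 64.5 ± 10.2 in CG, and was called between TMG and TG (0.66, adjusted p = 0.0182) but not between TMG and CG (0.14, adjusted p = 0.376). In leaves it had 117 ± 11.7 CPM in TMY and 78.8 ± 1.90 CPM in TY (0.62, adjusted p = 0.0265). Of 19 peroxiredoxin and glutathione peroxidase genes, 14 were tested between TG and CG. None was called higher and 6 lower, against 18.5% and 17.1% of all genes. Between TY and CY 1 was called higher and 3 lower of 15, against 10.1% and 13.2%. With 3-MA added, 3 were called higher and 1 lower of 16 between TMG and TG, against 8.16% and 12%. Between TMY and TY 3 were called higher and 3 lower of 16, against 8.44% and 9.94%. The glutathione peroxidase TraesCS6A02G246400 fell to 45.1 ± 8.55 CPM in TG, against 157 ± 26.4 in CG (-1.77, adjusted p = 0.000450), and to 84.3 ± 12.1 CPM in TY, against 188 ± 14.5 in CY (-1.10, adjusted p = 0.00376). It was higher in TMG, at 66.5 ± 7.22 CPM, than in TG (0.56, adjusted p = 0.0381), and lower in TMG than in CG (-1.21, adjusted p = 3.16e-05).

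Superoxide dismutases make hydrogen peroxide from superoxide. Of their 10 genes none was called between TG and CG, against 35.6% of all genes. Called higher were 1 in TMG over TG, against 8.16% of all genes, 2 in TY over CY, against 10.1%, and 1 in TMY over TY, against 8.44%. None was called lower in these 4 comparisons. The most abundant, a gene the authors added to the annotation, had 249 ± 8.48 CPM in TMG, 234 ± 8.73 in TG and 203 ± 7.16 in CG. Of the 4 peroxisome assembly genes 1 was called higher between TMG and TG, the PEX16 gene TraesCS6B02G105800, which had 18.5 ± 1.90 CPM in TMG and 12.5 ± 0.966 in TG (0.56, adjusted p = 0.0147), and none was called between TMY and TY. Between TG and CG 1 of the 4 was called higher and 1 lower, and between TY and CY 1 was called lower. Of all genes, 8.16% were called higher between TMG and TG. Between TG and CG 18.5% were higher and 17.1% lower, and between TY and CY 13.2% were lower.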

How the data were processed

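RNA-seq libraries of wheat roots and leaves (18 libraries, 6 groups of 3, grouped by the sample labels) were analysed from a single table. The authors mapped 150 bp paired-end reads to the Chinese Spring assembly and deposited a raw count per gene and library. The submitters' processing notes name HISAT2 2.0.5 and Bowtie 0.12.2 without their role, and the counting program is not given in the sources used here. FPKM values were deposited by the authors beside the counts, with the gene lengths used for them. In addition, 75 columns of the authors' own comparisons (fold changes and p-values) were not used. Gene coordinates are those of the deposited table. No gene identifier matched the reference table at hand, so no sequence is shown.

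Each comparison was fitted on its own libraries with edgeR 4.0.16 in R 4.3.3. Low genes were removed by filterByExpr, libraries were scaled by TMM, and the quasi-likelihood test was run with glmQLFit and glmQLFTest. Benjamini-Hochberg adjustment ran over all genes tested. The standard error is the size of the log2 fold change divided by the square root of F, and 95% intervals use the normal approximation, which is narrow for so few libraries. Differences between tissues were interaction terms on 12 libraries. CPM used TMM factors over all 18 libraries, and correlations used a pseudocount of 1. The test was checked on simulated data. Libraries of 1 group differed by more than counting noise (chi-square per degree of freedom 4.51 to 49.7). Files were read with the data.table package (version 1.17.8), and figures were drawn with Python 3.11.15, pandas 2.3.3, numpy 2.4.6 and matplotlib 3.10.9.

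The alternatives were DESeq2 1.42.0, RLE factors, scaling by library size alone, omitting the filter, a filter of CPM 1 in at least 3 libraries, a single fit of all 6 groups, a block for the replicate number, a limit of 1 on the size of the log2 fold change, and omitting each library. Members and gene lists were chosen with earlier results of these data known. Genes named outside the members are, by rule, the 3 most correlated described genes of the highest root and the highest leaf catalase and the most abundant gene of each list. The genes with a catalase domain and no description were added after their values were seen.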

Additional observations from a re-analysis of the deposited data

Results flagged for a closer look

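The NaCl change differed between roots and leaves by a test of the difference itself for TraesCS4B02G325800 (-3.39), TraesCS4D02G322700 (-2.68), TraesCS5A02G498000 (1.85), TraesCS6A02G041700 (5.27) and TraesCS6D02G048300 (3.94), as root change minus leaf change on the log2 scale. The root changes of TraesCS4B02G325800 and TraesCS4D02G322700 rested on 12 and 25 counts in TG and 135 and 154 in CG. The 3-MA change differed for TraesCS6A02G041700 (-3.40). Without CY library 2 the NaCl difference of TraesCS6A02G041700 was 1.68, and it was no longer called (adjusted p = 0.512 with edgeR).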

How the results depend on the processing

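Of 591 log2 changes of single catalase genes under other settings, 547 kept their direction and side of the threshold, 27 lost the call, 13 gained it and 4 changed sign. The sign changes were among changes that were not called. With library size as the only scaling these were the 7B gene between TG and CG (0.16), the 4D gene between TY and CY (0.0575) and the unplaced gene between TY and CY (0.27), and with all 6 groups in one fit the 7B gene between TY and CY (-0.0397). That scaling moved the median log2 change of all genes by 0.23 between TG and CG, 0.26 between TMG and CG, 0.35 between TY and CY, 0.15 between TMY and TY, 0.53 between TMY and CY, 0.59 between CG and CY, 0.46 between TG and TY and 0.34 between TMG and TMY.

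The count of catalase genes called was 2 between TG and CG with a CPM of 1 in 3 libraries, where the 4B and 4D genes were no longer tested. Between TMG and TG it was 2 with a log2 change of at least 1 and 2 with all 6 groups in one fit. Between TY and CY it was 1 with a log2 change of at least 1, 1 with no filter and 1 with all 6 groups. With a log2 change of at least 1 it was 3 between TMY and TY, 5 between TMY and CY and 4 between TMG and TMY. The tissue difference in the 3-MA change had 0 with all 6 groups. Beyond what the settings' own construction gives, the cause was not tested.

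Same-numbered libraries deviated together only weakly or not at all (correlations of -0.233 to 0.187). Between roots and leaves these were 0.0378 to 0.155 for CG and CY, -0.0506 to 0.187 for TG and TY, and 0.0581 to 0.159 for TMG and TMY. Whether same-numbered root and leaf libraries came from the same seedlings is not given in the sources used here. These values do not settle it, and the main fits treated the tissues as unpaired. With the replicate number as a block the count was 1 between TY and CY, 3 between TMY and TY and 4 between TMY and CY, and within 1.5 times the main count in the other comparisons.

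Over fits that omitted a single library, 513 of 606 changes were the same, 77 lost the call, 5 gained it and 11 changed sign. The counts were 4 to 5 between TG and CG, 2 to 5 between TMG and TG, 5 to 7 between TMG and CG, 0 to 3 between TY and CY, 3 to 6 between TMY and TY, 5 to 8 between TMY and CY, 7 to 8 between CG and CY, 7 in each fit between TG and TY, 6 to 8 between TMG and TMY, 2 to 5 for the tissue difference in the NaCl change and 1 to 2 for that in the 3-MA change. The log2 changes that changed sign ranged from -0.0520 to 0.16 (unplaced gene, TG against CG), -0.56 to 0.0706 (5A, TMG against TG), -0.0860 to 0.0729 (7B, TY against CY), -0.22 to 0.22 (6D, TG against TY), -0.21 to 0.0434 (7B, tissue difference in the NaCl change), -0.12 to 0.81 (4B, tissue difference in the 3-MA change) and -1.03 to 0.0148 (4D, the same). Between TMG and TG the 4B and 4D genes had 10 and 13 counts in TMG and 12 and 25 counts in TG, so a change there was not detectable at this depth.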
